A study of Mus musculus with 3264 samples.

Results

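This report describes 10 mouse genes that were picked because their counts were high in wells labelled leukemia and near 0 in wells labelled T or HPC: Cacna2d2, Capn3, Cmah, Plagl1, Cel, Olfm3, Aass, Nrp2, Arhgef17 and Wnt6. They are 10 of the 24781 genes of the cell line table, and all 10 are also listed among the 25051 genes of the PBMC table. The study placed single mouse cells in wells and counted their RNA with barcoded primers that anneal to the poly(A) tail. The cell line wells held cells of 3 mouse lines mixed together, named leukemia, T cell and hematopoietic progenitor cell (HPC), with no strain, genotype or treatment named, and the PBMC wells held peripheral blood mononuclear cells of C57BL/6J mice. Cells were isolated by ALPS, an automated picker that images live cells, or by fluorescence-activated cell sorting (FACS).

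Wells are grouped by how the cell was taken. Of the 1836 listed wells, 17.4% were target wells, on 4 plates, picked by type, and their labels gave the line (39.5% leukemia, 37.6% T and 22.9% HPC). Random wells (18%, 4 plates) and time-lapse wells (54.9%, 16 plates, picked after imaging over time) carry no line label, and FACS wells (9.75%, 2 plates) carry a sort label. In these 3 sets a well took the line whose target wells it resembled most by Spearman correlation over 8800 genes, with the 10 genes left out. By profile, leukemia made up 30.3% of random, 35.2% of FACS and 42.5% of time-lapse wells, T 36.1%, 35.8% and 31.4%, and HPC the rest. Counts per well ran from 10005 to 140363, with a median of 38156.

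Labels and profiles did not match everywhere. In the FACS plates 23 of 66 wells labelled leukemia, 24 of 68 labelled T and 13 of 45 labelled HPC had the profile of their label, so FACS wells are described by profile. With FACS wells grouped by label instead, 0 of the 10 genes met the call used below, and 0.0118% of all genes tested did. In target plate 4, 3 wells labelled HPC had another profile. Of these, 2 had a leukemia profile and held 9 and 10 of the 10 genes, and the third had a T profile and held 0 of them. Each well is 1 cell and no culture or animal is named, so each group counts as 1 sample and no test was run. Ranges over plates are given as the spread, and intervals are exact Clopper-Pearson 95% intervals for counting error only.

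The 10 genes do not form a known pathway. Cacna2d2 encodes an auxiliary alpha-2-delta subunit of voltage-gated calcium channels. Capn3 encodes a calcium-dependent protease best known in skeletal muscle, Cel a bile salt-activated lipase secreted by the pancreas, and Olfm3 a secreted olfactomedin-domain protein of nervous tissue. Cmah encodes the hydroxylase that turns the sialic acid Neu5Ac into Neu5Gc, which mice make and humans do not. Plagl1 is an imprinted zinc finger transcription factor, Aass encodes the enzyme that starts lysine breakdown in mitochondria, Nrp2 a co-receptor for semaphorins and VEGF, and Wnt6 a secreted Wnt ligand.

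The line itself showed some T lymphocyte genes and lacked others. Of 9 T lymphocyte markers, 3 reached 10 CPM (counts scaled to a sum of 1000000) in target leukemia wells (Cd3e, Cd3g and Lat), against 6 in T wells and 2 in HPC wells. Lck, Thy1 and Bcl11b reached it in T but not in leukemia wells, and Cd247 was at 0 in both. The list summed to 626.76 CPM in leukemia and 1600.9 CPM in T wells. The HPC wells, taken by label, include the 3 off-profile wells of plate 4: without them, a choice made after the data were seen, 0 T lymphocyte markers reached 10 CPM in HPC wells, and their sum fell from 63.2 to 10.98 CPM. Klrd1, alone of 6 NK markers, and Ccr2, alone of 7 monocyte markers, also reached 10 CPM in leukemia wells. There the NK list summed to 131.27 CPM (0.210 in T and 49.01 in HPC wells), with Ncr1, Gzma and Eomes at 0. The monocyte list summed to 25.1 CPM (7.06 and 991.59). No B lymphocyte, erythroid, megakaryocyte or progenitor marker of the lists reached 10 CPM in leukemia wells. Markers of tissues that some of the 10 genes are known for were at or near 0: the 4 neuron markers were listed at 0 in leukemia wells, the 4 muscle markers summed to 0.858 CPM and the 3 pancreas markers to 0.237 CPM.

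Promoters are shown for 5 genes: Cmah, Plagl1, Cacna2d2, Olfm3 and Nrp2. Of the 10 genes, Olfm3 and Nrp2 varied most between time-lapse plates. Cmah, Plagl1 and Cacna2d2 ran opposite to Olfm3 over those plates, as given further on. Cel also ran opposite to Olfm3, and its promoter is not shown. Sequences are from RefSeq, build GRCm38.p6, the build that mm10 names, and 9 of the 10 genes had an entry, with 12 promoters in all. Each runs 5′ to 3′ on the gene's own strand (plus for all 5) over 300 bases around a start site, and capitals mark the motifs found by search. For Cmah and Olfm3, which have 2 entries each, the more 5′ is shown.
Cmah, chr13:24327154-24327453: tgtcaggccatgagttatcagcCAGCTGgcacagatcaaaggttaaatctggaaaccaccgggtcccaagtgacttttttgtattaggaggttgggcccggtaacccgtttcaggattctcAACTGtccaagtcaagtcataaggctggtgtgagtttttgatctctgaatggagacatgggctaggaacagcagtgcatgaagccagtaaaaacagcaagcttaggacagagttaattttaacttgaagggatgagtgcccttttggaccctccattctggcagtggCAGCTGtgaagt
Plagl1, chr10:13090582-13090881: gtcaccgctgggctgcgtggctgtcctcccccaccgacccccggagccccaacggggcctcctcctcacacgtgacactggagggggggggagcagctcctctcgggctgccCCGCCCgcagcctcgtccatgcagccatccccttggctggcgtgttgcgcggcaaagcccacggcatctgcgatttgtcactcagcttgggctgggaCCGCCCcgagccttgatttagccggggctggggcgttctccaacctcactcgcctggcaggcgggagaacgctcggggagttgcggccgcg
Cacna2d2, chr9:107399630-107399929: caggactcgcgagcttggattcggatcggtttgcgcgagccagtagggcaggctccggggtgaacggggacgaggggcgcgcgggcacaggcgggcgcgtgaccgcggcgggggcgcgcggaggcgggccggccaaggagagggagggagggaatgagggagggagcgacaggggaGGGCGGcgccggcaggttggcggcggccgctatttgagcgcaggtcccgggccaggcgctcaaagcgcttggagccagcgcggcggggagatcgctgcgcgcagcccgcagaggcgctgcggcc
Olfm3, chr3:114903828-114904127: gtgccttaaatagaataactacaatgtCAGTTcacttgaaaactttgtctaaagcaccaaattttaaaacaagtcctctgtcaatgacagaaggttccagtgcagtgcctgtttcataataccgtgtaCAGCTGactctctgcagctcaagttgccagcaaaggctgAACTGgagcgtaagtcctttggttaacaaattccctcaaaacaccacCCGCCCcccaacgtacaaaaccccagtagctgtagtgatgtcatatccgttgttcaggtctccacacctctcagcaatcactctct
Nrp2, chr1:62703067-62703366: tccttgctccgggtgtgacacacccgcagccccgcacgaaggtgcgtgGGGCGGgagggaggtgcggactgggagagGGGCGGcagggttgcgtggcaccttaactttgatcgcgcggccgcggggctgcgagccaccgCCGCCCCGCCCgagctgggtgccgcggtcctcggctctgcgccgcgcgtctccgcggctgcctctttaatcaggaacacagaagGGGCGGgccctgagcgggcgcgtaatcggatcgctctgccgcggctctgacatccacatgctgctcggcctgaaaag

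Both strands were searched for 7 motifs. The GC box (GGGCGG) was in 6 of the 12 promoters, those of 6 genes (Aass, Cacna2d2, Nrp2, Olfm3, Plagl1 and Wnt6). It was in 35.7% of all 32851 promoters of the same length. An E-box of the form CAGCTG was in 5 of the 12, of Capn3, Cmah and Olfm3 (16.3% of all). The MYB core AACTG was in 6 of the 12, of Capn3, Cmah, Olfm3 and Wnt6 (44.8% of all). The GATA motif AGATAA was in 2 of the 12, of Capn3 and Cmah (11.2% of all). The RUNX motif TGTGGT was in 1, of Capn3 (16.8%). Neither the ETS motif CCGGAAG (8.86% of all) nor the TATA box TATAAA (13.6%) was found in the 12 promoters. The promoters differed in base composition, from 44.7% G and C for the Olfm3 promoter shown to 76.7% for Wnt6, with a median of 56% against 52.7% over all promoters.

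In target wells, whose values chose the genes, all 10 were at least 8-fold higher in leukemia than in both other lines, on the scale of log2 (CPM + 1) averaged over plates and higher on every plate. That call was met by 1.53% of the 8818 genes tested there, and nothing is read from the count. The same call in wells that did not choose the genes was met by 10 of 10 in random wells, where 1.53% of 9038 genes met it. It was met by 10 of 10 in FACS wells (1.45% of 9061 genes) and by 10 of 10 in time-lapse wells (1.27% of 9115 genes). Random and FACS wells come from a mixture of the same 3 named lines, so they repeat the measurement but not necessarily the culture. Wells of all 3 sets took their line from likeness to the target wells over other genes. The 10 genes were also chosen with earlier results of these data known.

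**Figure D1:**
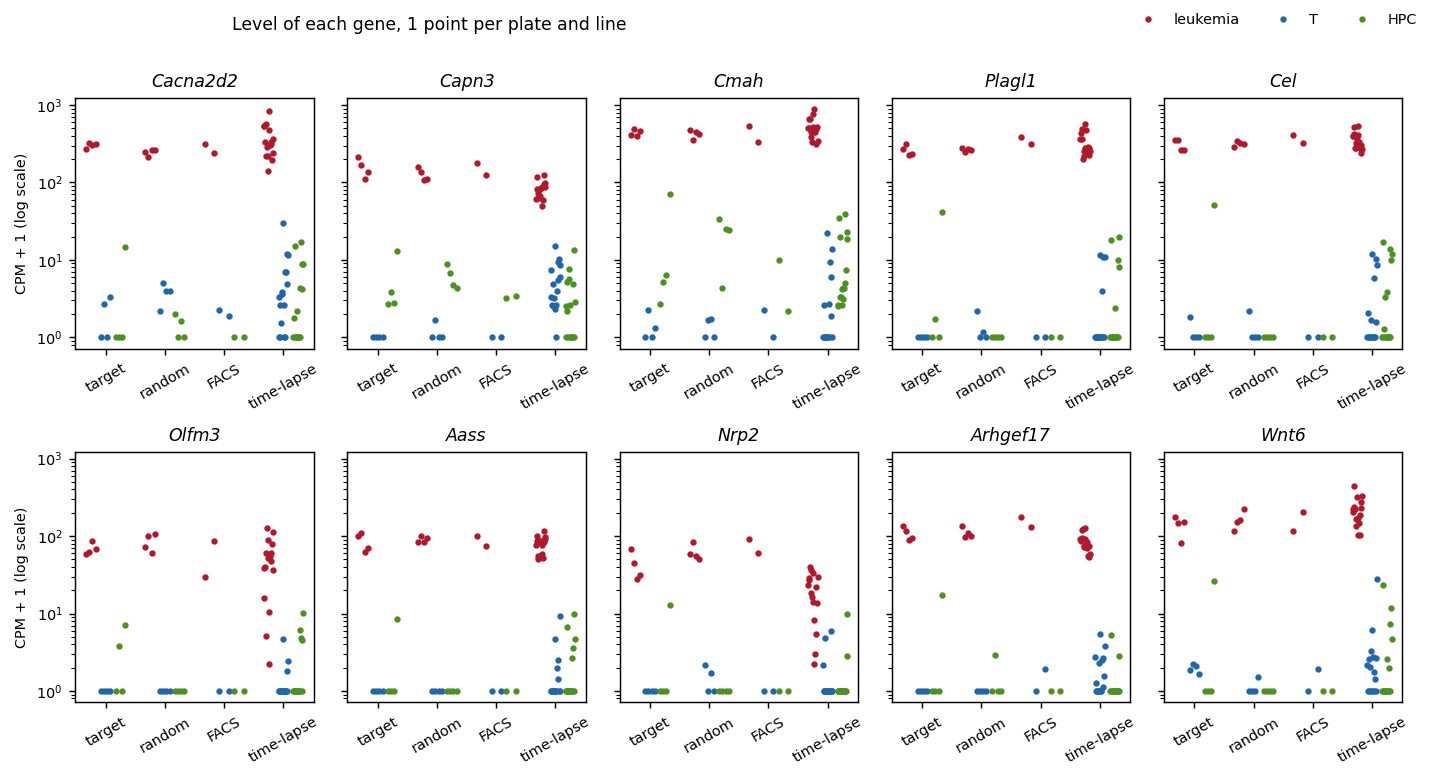
Level of each gene as CPM + 1 on a log axis, 1 point per plate and line (red leukemia, blue T, green HPC), in target wells by label and in random, FACS and time-lapse wells by profile, for plates with at least 5 wells of the line. The red points lie above the blue and green points of the same set, except for Olfm3 and Nrp2 in the time-lapse set, where the lowest leukemia plate is at 1.21 CPM.

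Cacna2d2 (ENSMUSG00000010066, chr9:107399733-107529346, plus strand) stood at 242.96, 211.65, 262.81 and 258.39 CPM in leukemia wells of the 4 random plates. It had a count in 99 of 100 leukemia wells and in 14 of the T wells, 11.8% (6.58% to 18.9%), where it held 17 counts and 2.98 CPM. The ratio of leukemia to T wells was 81.8 (50.8 to 141.05). In HPC wells it held 1.5 counts. Among the 10 genes it was the most often found in random T wells, with at most 2 counts in any of them, and the leukemia and T plates did not overlap.

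Capn3 (ENSMUSG00000079110, chr2:120463593-120504919, plus strand) stood at 156.11, 135.15, 108.11 and 110.15 CPM in random leukemia plates and was found in 96 of 100 wells. It was found in 16 of the HPC wells, 14.4% (8.47% to 22.4%), and in 1 T well, 0.84%. The ratio of leukemia to HPC wells was 23.2 (14.7 to 38.9). In time-lapse plates the order of the other lines turned: Capn3 was found in 53 T wells, 16.7% (12.8% to 21.3%), and in 12 HPC wells, 4.56% (2.38% to 7.83%). Without the wells that carried 20% or more of a second line's score these were 47 wells, 15.2%, and 8 wells, 3.14%. Time-lapse T wells were deeper than HPC wells, with median depths of 58932 and 33857 counts over all wells of each line. Scaled for depth, Capn3 stood at 4.84 CPM in all T and 2.31 CPM in all HPC wells of that set.

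Cmah (ENSMUSG00000016756, chr13:24327404-24477289, plus strand) stood at 471.45, 355.73, 445.48 and 416.14 CPM in random leukemia plates. It was the gene of the 10 most often found in HPC wells, with 27 wells, 24.3% (16.7% to 33.4%), and 20.1 CPM, between 3.38 and 32.6 CPM over plates. In T wells it was found in 2 wells, 1.68%. Leukemia wells exceeded HPC wells 21.1-fold (16.5 to 27), and the plates did not overlap. Time-lapse HPC wells held it in 33, 12.5%, and at 10.9 CPM. Without the wells that reached 20% of a second line's score, described further on, it was in 29, 11.4%, and at 4.39 CPM.

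Plagl1 (ENSMUSG00000019817, chr10:13090832-13131694, plus strand) was found in all 100 random leukemia wells, at 275.01, 246.84, 265.84 and 262.47 CPM over plates, and in 0 HPC wells, which by the limit of 3 counts allows a share of up to 2.70% of wells with a count. Its 1.25 counts in T wells lay in 2 wells. It was at least 302.75-fold higher in leukemia than in HPC wells, taking 3 counts over all HPC wells as the floor. Cel (ENSMUSG00000026818, chr2:28555819-28563403, minus strand) was also found in all 100 wells, at 283.8, 345.12, 321.22 and 310.06 CPM, with 0 counts in HPC wells (at least 362.63-fold higher in leukemia) and 1 count in T wells. A leukemia well held between 2 and 49 Cel counts, with a median of 11.

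Wnt6 (ENSMUSG00000033227, chr1:74754342-74785322, plus strand) was found in 85 of 100 random leukemia wells, at 115.79, 148.83, 158.2 and 220.31 CPM, with 1 count in T wells and 0 in HPC wells. Arhgef17 (ENSMUSG00000032875, chr7:100869746-100932161, minus strand) was found in 94 wells, at 135.44, 96.1, 108.11 and 99.3 CPM, with 0 counts in T wells and 2 in HPC wells. Aass (ENSMUSG00000029695, chr6:23072173-23132986, minus strand) was found in 93 wells, at 82.7, 100.52, 83.9 and 92.5 CPM, and was at 0 in the other lines, so that leukemia wells were at least 170-fold above T and at least 102.88-fold above HPC wells. For all 3 the leukemia plates lay above every T and HPC plate.

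Olfm3 (ENSMUSG00000027965, chr3:114904078-115125764, plus strand) was found in 75 of 100 random leukemia wells, 75% (65.3% to 83.1%), and ranged over plates from 57.1% to 91.7% of wells. It stood at 72.4, 100.52, 59.6 and 104.71 CPM, and at 0 counts in both other lines. Nrp2 (ENSMUSG00000025969, chr1:62703317-62818692, plus strand) was found in 73 wells, at 57.9, 82.7, 54.5 and 50.3 CPM, with 2 counts in T wells and 0 in HPC wells. A leukemia well held at most 16 Olfm3 and 9 Nrp2 counts. The 2 FACS plates differed for Olfm3, with 28.2 and 86.5 CPM in leukemia-profile wells.

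Counted together, the 10 genes split the wells into separate heaps. Of 330 random wells, 230 held 0 to 2 of the genes, 0 held 3 to 5 and 100 held 6 to 10. All 100 of the last had a leukemia profile, and none of the 230 did, although the profile did not use these genes. FACS wells fell into 64.8%, 0% and 35.2% in the same way, and again the last, 63 wells, were the leukemia-profile wells. The median leukemia well held 9 of the 10 genes in each of the 4 sets. With every well thinned to 10000 counts the median was 7 in target, random and FACS wells and 6 in time-lapse wells.

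**Figure D2:**
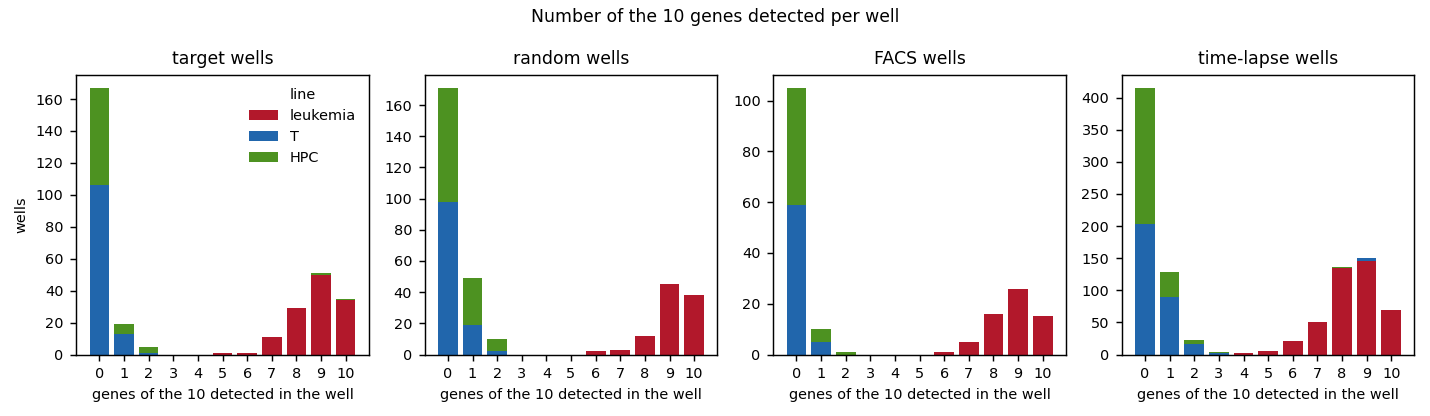
Number of wells (vertical axis) by how many of the 10 genes had a count in the well (horizontal axis), colored by line, from the label in target wells and from the profile elsewhere. Between the heap at 0 to 2 genes and the heap at 6 to 10 there are 0 random wells, 0 FACS wells, 1 target well and 12 time-lapse wells.

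At least 1 of the 10 genes was found in 21 random T wells, 17.6% (11.3% to 25.7%), and in 38 HPC wells, 34.2% (25.5% to 43.8%). Without Cmah the HPC share was 17.1%. T wells had the higher median depth, 44508 against 29584 counts. In these wells the summed level of the 10 genes was 4.43 CPM in T and 26.6 CPM in HPC, against 1875 CPM in leukemia wells.

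Time-lapse wells split less sharply: 56.2% held 0 to 2 of the genes, 12 wells held 3 to 5 and 430 held 6 to 10. Of the 430, 420 had a leukemia profile, 6 a T profile and 4 an HPC profile. A score from other genes marks the same wells. It sums genes at least 8-fold over both other lines, with the 10 genes left out, as a percent of the median target well of the line. Of the 580 T and HPC wells, 10 reached 20% of the leukemia score (20.9% to 63.9%), and these held 7 to 10 of the genes at a median of 532.57 CPM in sum and had a median depth of 100721 counts. The other 570 held at most 3, at a median depth of 46146 counts. No T or HPC well of the target (by profile), random or FACS set reached 20%. Whether these wells held more than 1 cell was not tested.

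Within leukemia wells, pairs of the genes were found together about as often as their single shares give. Over the 45 pairs, thinned to 10000 counts, the share of random leukemia wells holding both genes was within 5 percentage points of the product of the single shares for 44 pairs, with a median difference of -0.09 percentage points. The Spearman correlation of a gene with the sum of the other 9 ran from 0.67 to 0.84 over all 330 random wells and from -0.07 to 0.29 over the 100 leukemia wells. It ran from -0.34 (Olfm3) to 0.56 (Cel) over time-lapse leukemia wells and from -0.001 to 0.39 over target leukemia wells. Thinned to 10000 counts, the leukemia ranges were -0.02 to 0.21 (random), -0.12 to 0.40 (time-lapse) and -0.11 to 0.26 (target). Levels of some of the genes thus rose together among leukemia wells, most in the time-lapse set. These are descriptions: the wells share plates, their depth differs, and a well holds few counts of each gene.

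Between time-lapse and random plates, Nrp2 differed most of the 10 genes in leukemia-profile wells. The 16 time-lapse plates had 1.21 to 39.1 CPM of Nrp2, with a median of 19.2, and the 4 random plates 50.3 to 82.7, so every time-lapse plate lay below every random plate. The means were 19.1 ± 11.9 (SD, n = 16 plates) and 61.3 ± 14.5 (SD, n = 4 plates), a difference of -1.99 on the log2 (CPM + 1) scale. Nrp2 was found in 34.8% (30.3% to 39.5%) of time-lapse leukemia wells, against 73% (63.2% to 81.4%) of random ones, and in 13.6% against 36% at equal depth. A gene was called when it differed by 2-fold with no overlap of plates. Nrp2 was the 1 gene of the 10 below, where 0.453% of 7725 genes were, and 0 of the 10 were above, where 0.531% were. In target leukemia plates, whose values chose the genes, Nrp2 ran from 27.3 to 67.6 CPM, which overlaps both the time-lapse and the random plates. The 2 FACS plates had 89.6 and 60.2 CPM in leukemia-profile wells. A low Nrp2 level was therefore not particular to time-lapse plates. Between time-lapse and random wells, the set and the plates cannot be told apart, since no plate holds both kinds of well.

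**Figure D3:**
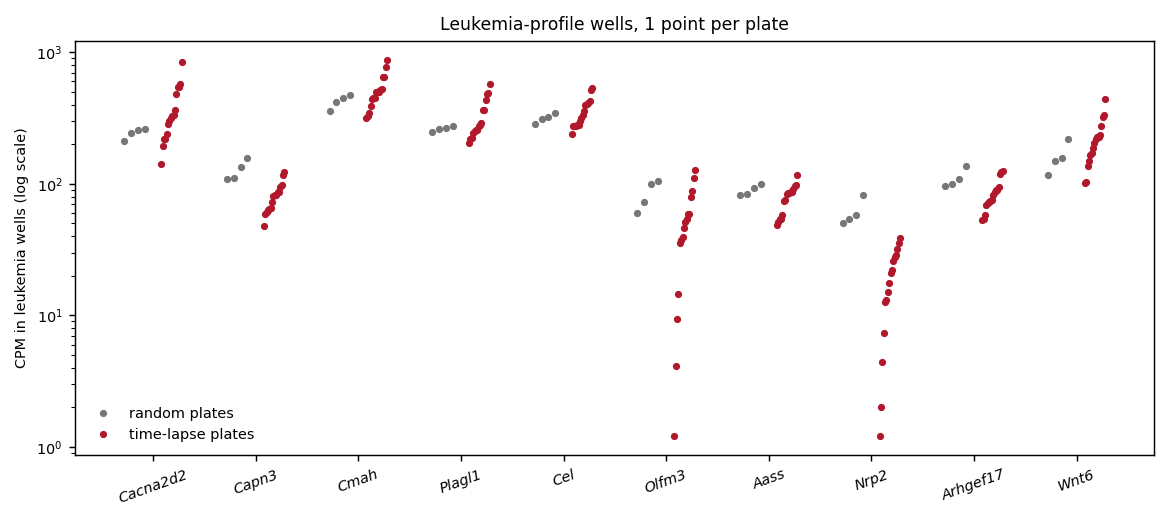
CPM in leukemia-profile wells on a log axis, 1 point per plate, sorted by level within each gene, for 4 random plates (grey) and 16 time-lapse plates (red). For Nrp2 the highest time-lapse plate (39.1 CPM) is below the lowest random plate (50.3 CPM), while for the other 9 genes the plates overlap.

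The other 9 genes overlapped between the sets. Olfm3 averaged 51.01 CPM in time-lapse and 84.3 CPM in random plates (-1.24 on the log2 scale), with 12 of 16 time-lapse plates below all random plates and 2 above. Capn3 averaged 80.3 and 127.38 CPM (-0.69), with 14 plates below and 0 above. Arhgef17 differed by -0.42, with 13 plates below. In the other direction Cacna2d2 averaged 370 and 243.95 CPM (0.45), with 11 plates above, and Wnt6 218.74 and 160.78 CPM (0.37), with 7 above. The median over all 7725 genes was -0.11, with an SD of 0.44.

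Of the 10 genes, Olfm3 and Nrp2 also varied most from plate to plate. Over the 16 time-lapse plates the SD of log2 (CPM + 1) was 1.63 for Olfm3 and 1.27 for Nrp2, against a median of 0.33 over 7402 genes, higher than in 99.9% and 99.7% of them. Among genes within 0.5 log2 units of its own mean level, each of the 10 stood above the 84th percentile, with Capn3 lowest at 84.9. Cacna2d2 ran from 141.64 to 842.66 CPM, and Wnt6 from 102.04 to 442.86 CPM. On plate 10 the 28 leukemia wells held 1 count of Olfm3 and 1 of Nrp2, but Cmah at 879.28 CPM, while the 18 leukemia wells of plate 6 held 87 of Olfm3 and 12 of Nrp2, with Cmah at 387.48 CPM.

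Plates with little Olfm3 had more Cmah, Plagl1 and Cel. Over the 16 plates Pearson's r of log2 (CPM + 1) with Olfm3 was -0.91 for Cmah (Spearman -0.91), -0.85 for Plagl1, -0.75 for Cel and -0.73 for Cacna2d2. Without plates 10 and 4, the farthest from the median Olfm3 level on that scale, it was -0.91, -0.86, -0.77 and -0.83. Cmah was 879.28 CPM on plate 10 and 650.99 CPM on plate 4, where Olfm3 was 1.21 and 4.14 CPM, and 315.26 CPM on plate 14, where Olfm3 was 78.8 CPM. For Nrp2 the same r was 0.27. These 4 genes are the most negative of 9 relations with Olfm3, picked out after their values were seen. Steps that the wells of a plate may share, such as a library preparation, are not named by the labels. Counts per leukemia well were 29407 on plate 10 and 32495 to 45023 on the others, and the part of depth in the relation was not tested. Within plates, over all leukemia wells, the Spearman correlation of Cmah with Olfm3 was -0.09 and that of Plagl1 with Olfm3 -0.13. Over all 45 pairs of the 10 genes it ran from -0.13 to 0.35, with a median of 0.04, and was highest for Cacna2d2 with Cel.

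**Figure D4:**
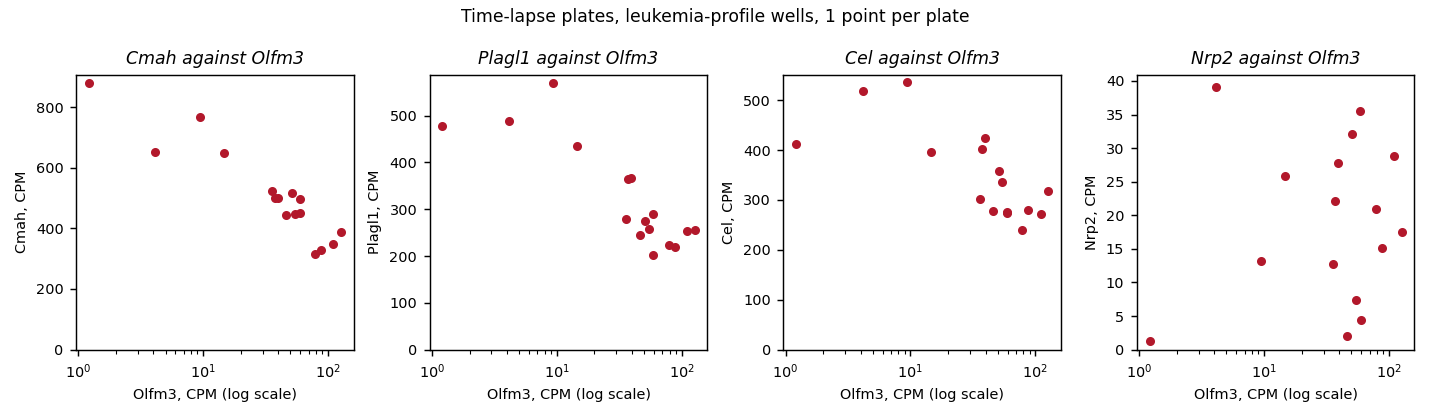
Time-lapse plates, 1 point per plate, with the Olfm3 level of leukemia-profile wells on a log axis and the CPM of Cmah, Plagl1, Cel and Nrp2 on linear axes from 0. Cmah falls from 879.28 CPM at the lowest Olfm3 level (1.21 CPM) to 387.48 CPM at the highest (126.97 CPM), while Nrp2 shows no such order.

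Of the genes related to the 10, in 10 lists, 67 reached 10 CPM in a line of the random wells. Of these 6 were on average at least 2-fold higher in leukemia than in both other lines, and higher on every plate, beside 5.21% of all genes tested, and 1 was lower by the same rule, beside 6.28%. In target wells 4 of 65 were higher (5.3% of all genes) and 2 lower (5.43%). Cacna1d, a pore-forming calcium channel subunit, was the 1 calcium channel gene of 17 to reach 10 CPM, at 18.7 CPM in leukemia, 0 in T and 1.46 in HPC random wells. The others higher were Arhgef19 (61.6, 0.366 and 0.895 CPM), Fzd6, a Wnt receptor (13.2, 0 and 0), Cdkn1c, an imprinted inhibitor of the cell cycle (14.1, 0 and 0), Cpb1, a pancreatic carboxypeptidase (12.7, 0.125 and 0), and the calpain Capn15 (44.9, 9.46 and 19.9). St3gal2, a sialyltransferase, was the 1 that was lower (5.72, 80.9 and 24.9 CPM). Capn15 and Cpb1 were not called in target wells, and Aldh7a1, an enzyme of lysine breakdown, was called lower there and not in random wells.

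Of 18 neuropilin ligands and partners, 3 reached 10 CPM in random wells and 0 were called, and none of the 7 olfactomedins did. The signalling genes Tcf7 and Lef1, which act in the nucleus downstream of Wnt, stood at 678.06 and 31.7 CPM in leukemia and 722.35 and 128.3 CPM in T wells. Nothing particular to a list is read from these counts.

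The genes beside the 10 on the chromosome were described in the same way. Of the 20 nearest genes of the count table, 1 on each side, 11 reached 10 CPM in a line of the random wells, and 0 of the 11 were called higher or lower in leukemia by the same 2-fold rule. With 5.21% of all genes called higher and 6.28% lower, nothing is read from a count of 0 among 11. Zfp106, 1.9 kb after Capn3, stood at 267.58, 144.31 and 157.31 CPM in leukemia, T and HPC wells. Wnt10a, 6.7 kb after Wnt6, stood at 7.74, 11.4 and 3.67 CPM. Capn3, Plagl1, Nrp2 and Arhgef17 overlap another listed gene (4931402G19Rik, Hymai, 4930487H11Rik and Mir3102), and whether counting used strand is not given in the sources used here, so reads of these pairs may be shared.

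Over the 330 random wells, the genes most like the summed level of the 10, by Spearman correlation over the 9967 genes found in at least 10% of wells, were Ppic (0.84), Cd160 (0.84), Cdkn2a (0.83), Plekhg2 (0.80), Vgll1 (0.78), Bach2 (0.78), Kcnk13 (0.77), Cd7 (0.76), Prss12 (0.76) and Fam46a (0.75). Ppic stood at 247.04 CPM in leukemia and 0 in T and HPC wells, and Cd160 at 391.74, 0.233 and 0.124 CPM. The order was sensitive to depth: with wells thinned to 10000 counts first, 3 of the 10 names stayed among the first 10, and over time-lapse wells 4 did.

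In PBMC, which did not enter the choice, 7 of the 10 genes had 0 counts in wells with at least 300 detected genes, which by the limit of 3 counts allows a share of up to 0.885% of wells with a count of each. The wells held 793981 counts, with a median of 2147, so this limits wells with a count and not cells that express the gene. Cacna2d2 had 2 counts and Capn3 1. Cmah had counts in 74 wells, 21.8% (17.5% to 26.6%), and 156.17 CPM, between 41.99 and 304.66 CPM over 8 plates. At 1000 counts per well, Cmah was found in 12.1% of PBMC wells and 35% of random leukemia wells, Cel in 0% and 31%, Plagl1 in 0% and 24%, and Nrp2 in 0% and 1%. For Nrp2 a difference was not detectable at this depth.

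**Figure D5:**
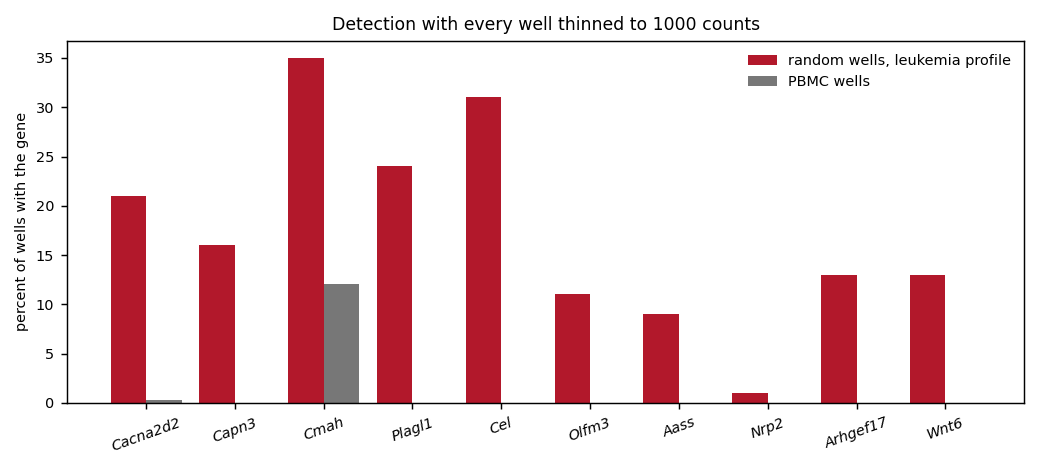
Percent of wells with a count of each gene after every well was thinned to 1000 counts, in the 100 random leukemia-profile wells (red) and the PBMC wells (grey). Cmah is the 1 gene with a PBMC bar of size (12.1%), Cacna2d2 is at 0.295% and the other 8 are at 0.

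In PBMC, Cmah was found in wells with the markers of either lymphocyte class. It was found in 15 of 74 wells with at least 2 B lymphocyte markers and no T marker, 20.3% (11.8% to 31.2%), in 45 wells among those with at least 2 T markers and no B marker, 25.4% (19.2% to 32.5%), and in 14 of the 88 other wells, 15.9% (8.98% to 25.3%). The intervals overlap, and the rule for these classes was set after the data were seen. At 1000 counts per well the shares were 12.2%, 14.1% and 7.95%.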

How the data were processed

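Expected counts are the deposited unit, molecules per gene and well as the authors computed them, not scaled between wells. Of the positive values of the 10 genes, 2.48% were not whole numbers. The submitters' processing notes name bcl2fastq, STAR and the build mm10, and the sources used here give no versions, counter, annotation or strand setting. Target wells were 126 leukemia, 120 T and 73 HPC by label. Random wells were 100 leukemia, 119 T and 111 HPC by profile, FACS wells 63, 64 and 52, and time-lapse wells 428, 317 and 263. Of 768 labelled PBMC wells, 346 were listed, and 339 of these had at least 300 detected genes. Counts were summed per plate and line, scaled to CPM over all listed genes and compared as log2 (CPM + 1) within plates, for plates with at least 5 wells of the line. Calls were made for genes that averaged at least 10 CPM in 1 line. A value above 0 counts as detected, and thinning used rounded counts. The 10 genes, the related lists (172 genes) and the markers were chosen with earlier results of these data known. The named genes are the 10, the 10 most like them in random wells, their nearest neighbours and the called members of the related lists, with a few examples added after their values were seen. The line call was tried on simulated counts drawn without extra variation between plates. That trial does not cover the spread between plates in the real counts. Software was matplotlib 3.10.9, numpy 2.4.6, scipy 1.17.1, pandas 2.3.3 and python 3.11.15.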

Additional observations from a re-analysis of the deposited data

How the results depend on the processing

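The counts of called genes were repeated with Rn45s left out of the total, 0.5 or 5 CPM added, a 2-fold call, no filter, wells with a second line left out and the other correlation, and stayed at 10 of 10 in random and FACS wells. With 5 CPM added the count was 9 in target wells (without Nrp2) and 8 in time-lapse wells (without Olfm3 and Nrp2), and 10 under the other settings. These settings differ in strictness. With 5 CPM added, 0.42% of all genes tested were called in target, 0.531% in random, 0.508% in FACS and 0.406% in time-lapse wells. With the 2-fold call the shares were 5.3%, 5.21%, 4.93% and 3.93%. The count of the 10 genes stayed at 1 (Nrp2) between time-lapse and random wells, where 2-fold is the main rule. FACS wells grouped by label gave 0 of 10, beside 0.0118% of all genes tested. Leaving out each plate in turn gave 10 to 10 genes in each set, 1 to 1 between time-lapse and random wells, a median of 9 to 9 genes per random leukemia well, 23.2% to 28.5% of random T and HPC wells with any gene, and 20% to 24% of PBMC wells. Detection depended on depth and threshold: thinned wells gave a median of 7 genes, 10.4% of T and HPC wells (25.7% as deposited) and 10.3% of PBMC wells (22.1% as deposited), and a value of at least 2 gave 9.13% and 7.67%. Of the genes most like the 10, thinning kept 3 and time-lapse wells 4 of 10. Lines were compared within plates, and no test was run since each group is 1 sample. Groups of wells share plates, cultures are not named, and low counts limit Nrp2 and Olfm3 most.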
